A study of Caenorhabditis elegans with 4 samples.

Results

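The regions described here were the long unbroken peaks of RNA polymerase II, marked by its largest subunit AMA-1, in embryos of the nematode Caenorhabditis elegans. They were chosen by measured values: a width of at least 3000 bp in the peak list of the whole series, and an overlap of at least 1 bp with a peak in the list of each ChIP replicate. This gave 670 long peaks among 15152 series-wide peaks. The other 5187 series-wide peaks that overlapped both replicate lists served as the background.

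The immunoprecipitation with sequencing (ChIP-seq) used a polyclonal rabbit antibody on sonicated extract, with 2 AMA-1 ChIP libraries and 2 input DNA libraries. Every library came from strain N2 with a wild-type genotype, as mixed-stage embryos of both males and hermaphrodites, at a listed temperature of 20 degrees Celsius. All of them also share a growth protocol named for RNAi and the title tag RiIMB1, which the labels do not explain, so whether the animals were untreated is not known, and no other condition was there to compare. Whether the replicates were separate cultures is not stated, and the embryos hold many cell types, so polymerase on a gene in few cells and less polymerase per cell cannot be told apart.

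RNA polymerase II transcribes the protein-coding genes. It is recruited to a promoter, often gathers near the start of the gene, and then moves along the gene body to beyond its end. In ChIP-seq, a gene that many polymerases are crossing can give signal over its whole length, whereas a gene with polymerase mainly at its start gives a short peak. In C. elegans neighbouring genes can also be transcribed together as operons, and genes can lie close together, so that signal from several genes can run into each other. Which genes lie under the peaks was not analysed here, because no annotation of the files' build, WormBase WS220, was used. The regions are therefore given by chromosome, start and end in WS220, and no sequence is shown.

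Width and presence in both replicates are what chose these regions, and the following is a description of them. Of the 747 series-wide peaks of at least 3000 bp, 670 (89.7%, 95% Wilson interval 87.3 to 91.7%) were in both replicate lists, 27 in that of replicate 1 only, 40 in that of replicate 2 only and 10 in neither. Of the 14405 shorter peaks, 5187 (36.0%) were in both. A longer peak has more bases with which to meet a replicate peak. Among the 5857 series-wide peaks in both lists, long ones made up 11.4%. They were 4.42% of all series-wide peaks but held 3.93 Mb, or 33.1% of the bases in the list, and covered 3.92% of the chromosome spans, measured up to the last peak end.

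The width limit cut through a continuous distribution. The members just inside it were II:13870537-13873536 with 3000 bp, I:2005059-2008061 with 3003 bp and IV:3696182-3699188 with 3007 bp, and their series-wide scores were 18.05, 19.20 and 25.95. Just outside it lay III:12972547-12975545 with 2999 bp, I:1671399-1674396 with 2998 bp and V:20383241-20386236 with 2996 bp, with scores of 78.62, 17.08 and 55.72. The score is the peak caller's value as deposited and has no stated unit. Where scores from both replicate lists are given for a region, they are not on a known common scale. Over the members the median was 2774.7 in replicate 1 and 1811.3 in replicate 2.

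Most long peaks were only a few kb wide. The median width was 5036 bp, with quartiles of 3710 and 6870.5 bp, and 90% were at most 9782.2 bp. There were 333 members (49.7%) of 3 to under 5 kb, 274 (40.9%) of 5 to under 10 kb, and 63 (9.40%) of 10 kb and more. The score was higher in the wider classes, with medians of 32.8, 56.7 and 109.1 in that order. The classes overlapped, since scores ran from 7.04 to 186.9 in the narrowest and from 23.3 to 189.4 in the widest. Across the 670 members, which come from the same libraries, width and score had a Spearman's rho of 0.516. The list of 100 highest series-wide scores held 95 long peaks.

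**Figure D1:**
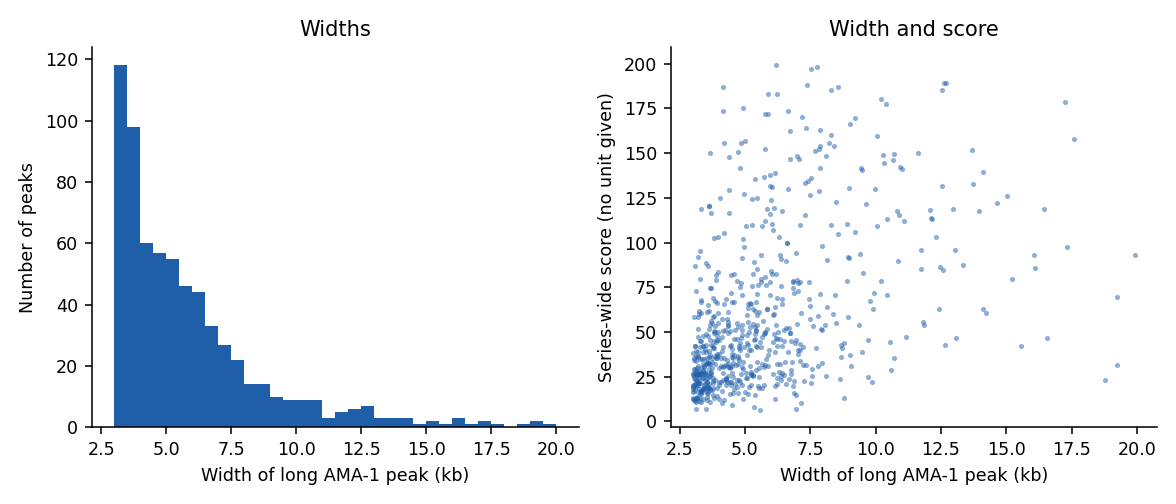
Widths of the 670 long AMA-1 peaks in kb (left, number of peaks per bin), and series-wide score against width in kb, one point per peak (right). The bins start at the limit of 3 kb, and the median is 5036 bp. Wide peaks occur at scores that are low as well as high among the members.

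The widest members were mostly not those of highest score. Of the 12 widest, 9 lay outside the 100 highest series-wide scores, and the others ranked 14, 29 and 94. The widest of all, I:7767457-7787381, spanned 19925 bp and had a score of 93.32, which ranked 144 in the list. Under it replicate 1 had a peak of 30334 bp, while replicate 2 had a break, and its wider peak there was 17569 bp. I:5299583-5318831 followed with 19249 bp and a score of 69.65, under replicate peaks of 22507 and 19829 bp. After it came I:4684800-4704025, with 19226 bp and a score of only 31.71. Both replicates covered it as a single wide peak, of 21410 bp in replicate 1 and 21344 bp in replicate 2.

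The next, III:1914067-1932842, was 18776 bp wide with a score of 23.32, which was the lowest among the members of 10 kb and more. Its replicate peaks were 21231 and 21066 bp wide. Those 2 peaks of low score among the members ranked 743 and 1164 among the 15152 series-wide peaks. The replicate 2 peaks over them had scores of 119.12 and 78.91, where the median over all members was 1811.3. In replicate 1 the scores were 1611.37 and 876.35, where that median was 2774.7. By contrast V:9081103-9098347, with 17245 bp, had a score of 178.72, and its peaks had a score of 3100 in both replicate lists. Exactly 3100 is shared by 278 peaks of replicate 1 and 189 of replicate 2, and 8 and 6 peaks score higher, up to 3233.1. Scores of 3100 and more were counted together here.

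Other members among the 12 widest lay on II, III, V and I. On II, 13812189-13829779 had 17591 bp and a score of 158.05. Chromosome III held 2785065-2802384 with 17320 bp, 11109900-11126356 with 16457 bp, 12603902-12619948 with 16047 bp and 9696004-9711563 with 15560 bp. The last of these had 1862.78 in replicate 1 and 259.34 in replicate 2. On V, 20406513-20423065 with 16553 bp had 3100 in replicate 1 and 363.89 in replicate 2. I:7077639-7093722 had 16084 bp. None of the 12 lay on IV or X, where the widest were IV:16480801-16496012 with 15212 bp and X:16924911-16939923 with 15013 bp.

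The single members of highest and lowest score differed little in width, although width and score had a Spearman's rho of 0.516 over all members. The member with the highest score, 199.43, was III:11090744-11096933 with 6190 bp. The lowest score, 6.40, belonged to V:17126749-17132318, with 5570 bp. Yet the lowest-scoring one lay under replicate peaks of 16989 and 17067 bp whose own scores were 1572.36 and 3100. Those peaks are much wider than the member, so their score is not that of the member alone.

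The replicate lists showed these regions as parts of wider peaks. Counted once per member, replicate peaks over the members had a median width of 10384.5 bp in replicate 1 (quartiles 7118.8 and 15580.5 bp). In replicate 2 the median was 8165.5 bp (quartiles 5731.8 and 12453 bp). Peaks that held 2 or more members, 88 in replicate 1 and 71 in replicate 2, are thus repeated. A member filled a median of 53.5% of its replicate 1 peak and 71.1% of its replicate 2 peak. Other peaks in both lists filled 11.5% and 14.0%. These are descriptions, since width is what chose the members, and the series-wide list may hold the reads of both replicates.

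**Figure D2:**
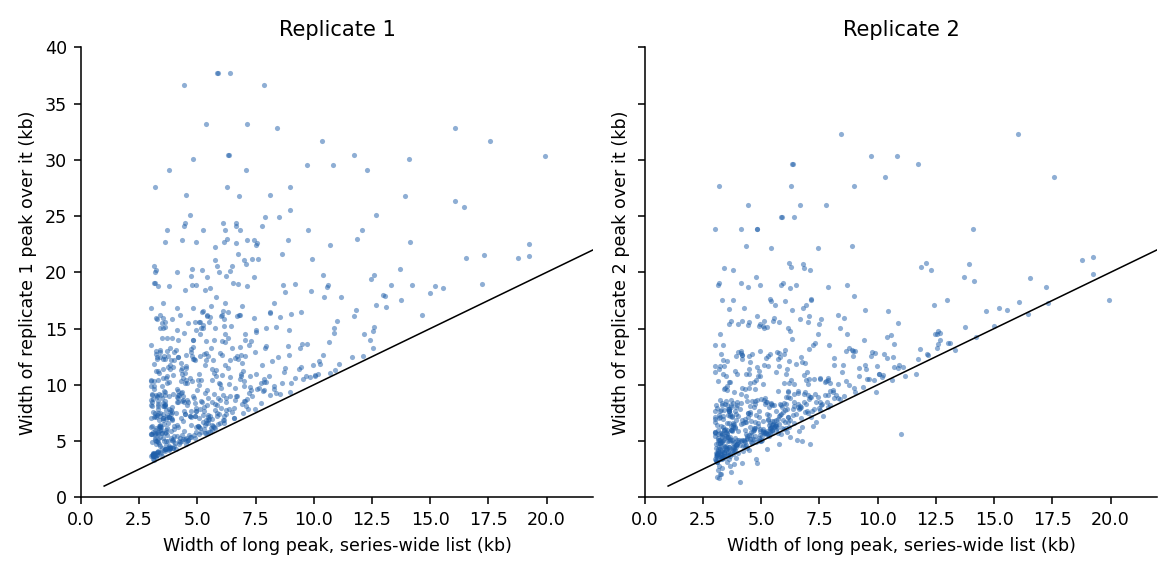
Width of the replicate peak over each of the 670 long peaks, in kb, against the width of the long peak in the series-wide list, in kb, for replicate 1 (left) and replicate 2 (right). The line marks equal width, and 0 points in replicate 1 but 45 in replicate 2 lie below it.

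Like nearly all peaks found in both lists, most members were unbroken in the replicates. In replicate 1 all 670 lay under a single peak, against 99.6% of the other peaks, and 656 (97.9%, interval 96.5 to 98.8%) were covered to the last base, against 93.2%. Replicate 2 covered 649 members (96.9%, interval 95.3 to 97.9%) by a single peak and 21 by 2 peaks, against 99.0% of the others by a single peak. There 538 members (80.3%, interval 77.1 to 83.1%) were fully covered, against 86.8%. With the lower cover of both lists taken for each member, 98.2% of the bases of the long peaks were covered. The breaks in replicate 2 were 2 to 1239 bp long with a median of 171 bp, and 16 of 21 were at most 500 bp. Only 4 members were under 50% covered in replicate 2. The least covered, I:9379900-9383056, singled out after its value was seen, lay wholly in a replicate 1 peak of 19073 bp but shared 2.53% of its bases with replicate 2.

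Edges were less alike than cover. For the 649 members under 1 peak in each replicate, the starts of both replicate peaks were a median of 333 bp apart (quartiles 101 and 1689 bp) and the ends 413 bp apart (quartiles 100 and 1647 bp). Of the starts 56.2% and of the ends 52.4% were within 500 bp of each other. The replicate 1 peak reached beyond the member by a median of 1447 bp on the left and 1396 bp on the right, and the replicate 2 peak by 576 and 511 bp. Replicate 1 peaks were wider by a median of 811 bp. Over all 670 members, with shared replicate peaks repeated, the widths of the replicate peaks had a rho of 0.719 and their scores one of 0.641.

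Many members lay under replicate peaks with scores of 3100 or more. In both lists 187 of 670 members (27.9%, interval 24.6 to 31.4%) did so, against 3.84% of the other peaks in both lists. A further 125 did so in replicate 1 only, 25 in replicate 2 only and 333 in neither. By width the share with such scores in both was 13.8% (interval 10.5 to 17.9%) for 3 to under 5 kb, 36.5% (interval 31.0 to 42.3%) for 5 to under 10 kb and 65.1% (interval 52.8 to 75.7%) for 10 kb and more. A replicate peak is counted once for each series-wide peak under it, and the intervals do not allow for this. These shares carry no test, since all 3 lists can rest on the same reads.

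Many broad replicate peaks held no member, in a share that depends on the width limit and on joining. Long series-wide peaks found in 1 list only are not members. With these counted too, 40.6% of the broad replicate 1 peaks and 47.0% of the broad replicate 2 peaks held a long peak. Of the 1454 replicate 1 peaks of at least 3000 bp, 570 (39.2%, interval 36.7 to 41.7%) held a member and 884 did not. In replicate 2 it was 585 of 1309 (44.7%, interval 42.0 to 47.4%), and 26 narrower peaks also met a member. With peaks closer than 200 bp joined, 56.2% and 63.1% held one, with a limit of 2000 bp 56.9% and 63.9%, and with 5000 bp 20.7% and 24.1%. Broad peaks with a member had a median width of 9255 bp in replicate 1 and 7642 bp in replicate 2, against 4603 and 4540.5 bp for those without. Those without one were mostly made of several short series-wide peaks, a median of 4 in each replicate and at most 19 in replicate 1. Broad peaks with a member held a median of 4 and 3 series-wide peaks.

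Few peaks of either set were alone in their replicate peak. The single series-wide peak of its replicate 1 peak was a member in 86 cases, 12.8% of members (interval 10.5 to 15.6%), against 6.07% of the other peaks. In replicate 2 it was 148 members (22.1%, interval 19.1 to 25.4%), against 7.11%, and in both lists 75 (11.2%, interval 9.02 to 13.8%), against 4.43%. These shares carry no test, and a peak that fills more of its replicate peak leaves less room for others. Another long peak shared the replicate 1 peak of 188 members (28.1%). No replicate peak held more than 3 members.

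On its nearer side a long peak usually had another series-wide peak very close by. The median gap to the nearest one was 139.5 bp, and for the other peaks in both lists it was 125 bp. For 444 members (66.3%, interval 62.6 to 69.7%) it was under 200 bp, against 71.3% of the other peaks. The smallest gap in either set was 43 bp. Averaged over the 6 chromosomes, the medians of log10 of the gap differed by 0.0591 ± 0.0639 (SD, members minus others), which was not past the threshold (exact sign-flip permutation over chromosomes, two-sided, p = 0.125, adjusted p = 0.278 over 5 tests). It was higher on 4 of 6 chromosomes, and it turned to -0.00260 without replicate 1 and -0.0138 without replicate 2.

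The farther side differed more, though not past the correction. The median of the larger flanking gap was 1040 bp for the members, with quartiles of 270 and 12665 bp, and 542 bp for the others, with quartiles of 238 and 2255 bp. On X the medians were 5456 bp for members and 584 bp for others, on V 3389 and 593 bp, and on IV 1783 and 567 bp. They were closer on II, with 1080 and 538 bp, and on I, with 654.5 and 479 bp, and nearly equal on III, with 537 and 529 bp. The larger gap was therefore higher for members on 6 of 6 chromosomes, by 0.444 ± 0.370 on the log10 scale (SD, n = 6 chromosomes, exact sign-flip permutation, two-sided, p = 0.0312, the smallest possible). This comparison was added after the gaps had been seen, and over the 5 tests its adjusted permutation p was 0.156, so it did not pass the correction.

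Several peaks of 1 replicate peak enter this comparison together. With only the widest peak of each replicate 1 peak kept, 570 members and 1451 others were left, and the medians were 1436 and 1164 bp. The difference was then 0.213 ± 0.287, higher on 4 of 6 chromosomes (exact sign-flip permutation, two-sided, p = 0.188). Without replicate 1 it was 0.274 and without replicate 2 0.336, each with an exact permutation p of 0.0938. The same caller sets where a peak ends and where the next begins, and its part in the gaps was not tested.

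**Figure D3:**
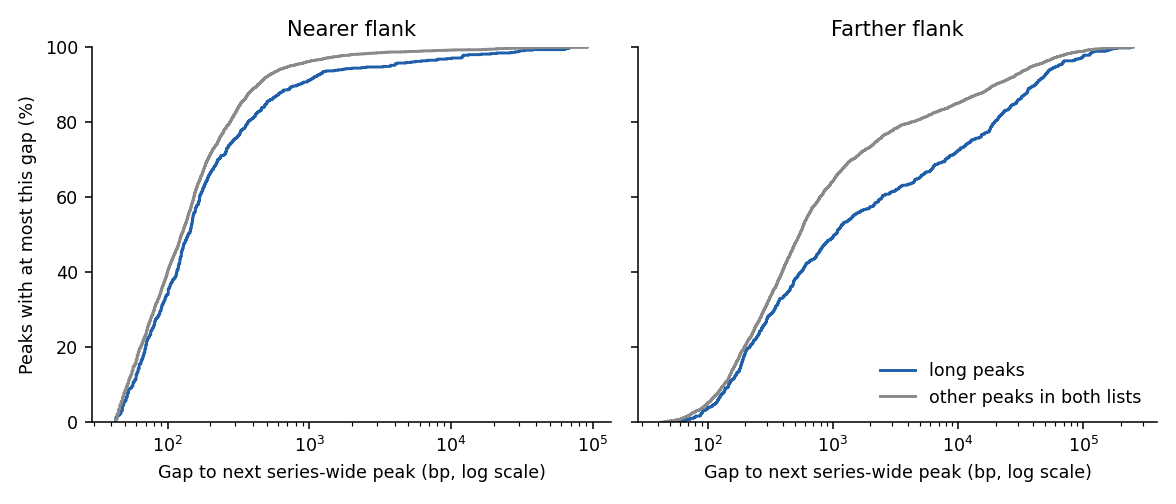
Share of peaks in % with at most a given gap to the next series-wide peak, in bp on a log scale, on the nearer (left) and farther (right) flank, for the 669 long peaks and the 5185 other peaks in both replicate lists that have a neighbour on each side. The curves lie close on the nearer flank, with medians of 139 and 125 bp, and part on the farther flank, with medians of 1040 and 542 bp.

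Close neighbours on both sides were described by counts, without a test. A series-wide peak lay under 1000 bp away on each side of 329 members (49.1%, interval 45.3 to 52.9%), against 64.3% of the other peaks. For 104 members (15.5%, interval 13.0 to 18.5%) one flank was under 200 bp and the other at least 5000 bp, against 10.1% (interval 9.33 to 11.0%) of the others. No side was favoured, since the larger gap was on the left of 321 of 669 members (48.0%). Among the 12 widest members, 9 had a peak under 1000 bp away on both sides.

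Isolated long peaks were few, and their share was not tested either. No series-wide peak lay within 5000 bp on either side of 27 members (4.03%, interval 2.78 to 5.80%), against 1.12% of the other peaks. The most isolated was V:1690165-1693964, of 3800 bp, with 97169 bp free on its left and 68776 bp on its right. V:7057981-7065703, of 7723 bp, had 157755 and 67607 bp, and II:11373855-11376948, of 3094 bp, had 67723 and 65229 bp. Their scores were 44.90, 41.00 and 86.93, against a median of 45.0 for all members. In replicate 1 the peaks over them were 4591, 8424 and 3905 bp wide, little more than the members themselves, and in replicate 2 they were 4218, 9082 and 3753 bp.

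The nearest neighbours of members were near the other peaks in both lists in width and score. The neighbours' median width was 604 bp (quartiles 266 and 1544 bp), and their median score 8.91. Over all other peaks in both lists the medians were 589 bp and 8.59. For the nearest neighbours of the other peaks they were 544 bp and 8.35. In both replicate lists 77.2% of the members' nearest neighbours were found, in replicate 1 only 14.6%, in replicate 2 only 2.69% and in neither 5.52%. For the other peaks these shares were 90.1%, 4.99%, 2.70% and 2.22%. A second long peak was the nearest neighbour of 85 members (12.7%), and a long peak was that of 8.29% of the others.

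Long peaks next to each other were far apart as a rule. The median gap between neighbouring members was 78376.5 bp over 664 pairs. In 137 pairs (20.6%) it was under 10000 bp, in 69 (10.4%) under 1000 bp and in 46 (6.93%) under 200 bp. Of those 69 close pairs, 67 lay in 1 replicate 1 peak and 60 in 1 replicate 2 peak. A member lay under 10000 bp from 253 members (37.8%, interval 34.2 to 41.5%), against 35.2% of the other peaks, which is a share near the background. The gap to the nearest long peak had a median of 25826 bp from members and 27089 bp from others. Over chromosomes the difference was -0.0525 ± 0.238 on the log10 scale, with members nearer on III, IV and X and farther on I, II and V (exact sign-flip permutation, two-sided, p = 0.656, adjusted p = 0.656).

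Groups of long peaks with gaps under 10000 bp were small. There were 96 pairs, 19 groups of 3 and 1 group of 4, while 417 members (62.2%) stood single. The group of 4, which was singled out after the groups were counted, ran over 29.2 kb at II:9257897-9287057, with members of 5115, 5509, 7115 and 3778 bp that covered 73.8% of it. A group of 3 at I:13285777-13309359, also singled out after the groups were counted, was 98.3% covered, by members of 3767, 7110 and 12307 bp. The most covered group of 3, with 99.2%, was III:10734282-10752898, which also holds the closest pair. The closest pair was III:10734282-10737465 and III:10737509-10743804, with 43 bp between them and 1 peak in each replicate over both, of 27564 and 27685 bp. Next came III:8796608-8804056 and III:8804105-8807317 with 48 bp, and I:2940024-2944905 and I:2944955-2948805 with 49 bp. Members in groups had a median width of 5149 bp and single ones 4935 bp, with median scores of 44.2 and 45.0. The replicate peaks over members in groups were wider, with medians of 15096 and 8601 bp in replicate 1, in the same order. In replicate 2 the medians were 10996 and 7083 bp. A replicate peak that holds several members must be wide and is counted once for each of them. The part of the grouping itself in this difference was not tested.

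Long peaks were sparsest on X and V, where the other peaks in both lists were fewest as well. X had 479 of those over a span of 17.7 Mb, and V had 727 over 20.9 Mb. The remaining chromosomes had 864 to 1137 over spans of 13.8 to 17.5 Mb. Chromosome I held 145 (9.63 per Mb), III 106 (7.70), II 115 (7.53), IV 116 (6.64), V 104 (4.98) and X 84 (4.74 per Mb). The density over the autosomes was 7.30 ± 1.69 per Mb (SD, n = 5). X lay just below V, so that the order of those neighbours rests on a small gap. Long peaks covered 2.44% of X and 2.89% of V, and 5.87% of I. X belongs to the dosage compensation system of C. elegans, which adjusts its transcription in hermaphrodites. Whether this bears on the density of long peaks was not tested.

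As a share of the peaks in both replicate lists, long ones were most frequent on X. There they made up 84 of 563 peaks, or 14.9% (interval 12.2 to 18.1%), against 11.2 ± 1.29% (SD, n = 5 autosomes). The autosomes ranged from 9.05% (interval 7.54 to 10.8%) on III to 12.5% (interval 10.4 to 14.9%) on V. X was 3.74 percentage points above the mean of the autosomes (exact permutation over 6 chromosomes, two-sided, p = 0.167, adjusted p = 0.278). No smaller permutation p than 0.167 is possible with 1 X, so the design cannot reach 0.05. The difference was 1.97 without replicate 1, 2.14 without replicate 2 and 0.278 with a limit of 5000 bp.

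The long peaks of X were also the shortest by median. Their median width was 4316 bp (quartiles 3520.5 and 5657 bp), against 4762.5 bp on V and 5310 bp on I, and 5092.7 ± 200.5 bp over the autosomes (SD of the medians, n = 5). Scores did not set X apart, with a median of 45.8 on X and 39.6 to 49.8 on the autosomes. Of the bases in peaks of both lists, the long ones held 51.8% on X, 43.1% on III and 48.6 to 49.6% on I, II, IV and V.

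**Figure D4:**
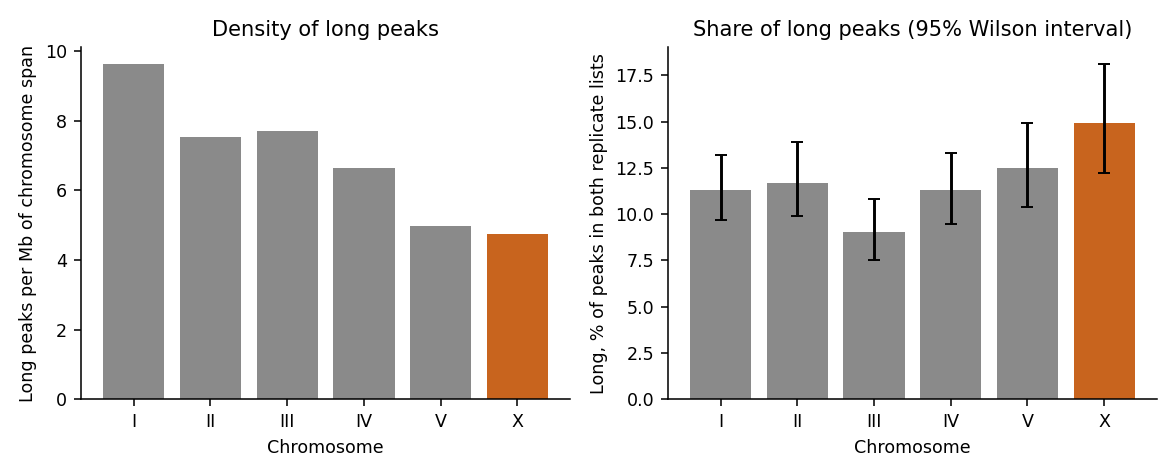
Long peaks per Mb of chromosome span (left) and long peaks in % of all series-wide peaks found in both replicate lists, with 95% Wilson intervals (right), by chromosome, X in orange. X is lowest in density, at 4.74 per Mb, and highest in share, at 14.9%.

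Along the chromosomes no difference in placement between long and other peaks passed the threshold. After division of each chromosome into 3 equal parts, 472 members (70.4%, interval 66.9 to 73.8%) had their midpoint in the 2 outer parts, against 73.3% of the others. By chromosome the share ran from 64.3% on II to 78.6% on X. Members minus other peaks, in percentage points, this share differed by -9.17 on V, -8.34 on II, -5.16 on IV and -3.12 on I, and by 3.91 on III and 6.13 on X. The mean difference was -2.62 ± 6.35 percentage points (SD, n = 6 chromosomes), which was smaller than its spread (exact sign-flip permutation, two-sided, p = 0.375, adjusted p = 0.469).

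Single stretches were rich or poor in long peaks. Over 97 complete bins of 1 Mb the median was 7 members and the highest 18, on I from 2 to 3 Mb, where they filled 97.9 kb. The bin on III from 12 to 13 Mb held 15 members and the one on I from 14 to 15 Mb 14. Other peaks of both lists were frequent in those bins too, with 114, 116 and 97, against a median of 46. This did not hold for the next bins, II from 11 to 12 Mb and X from 16 to 17 Mb. They had 13 members each, with 45 and 32 other peaks. The bin without a member was V from 3 to 4 Mb, which had 15 other peaks. It lay in the longest stretch without a long peak, V:2635495-4131771, of 1496.3 kb. On X the longest ran over 1167.5 kb, on II over 1050.4 kb, on IV over 989.4 kb, on III over 681.4 kb and on I over 529.9 kb.

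**Figure D5:**
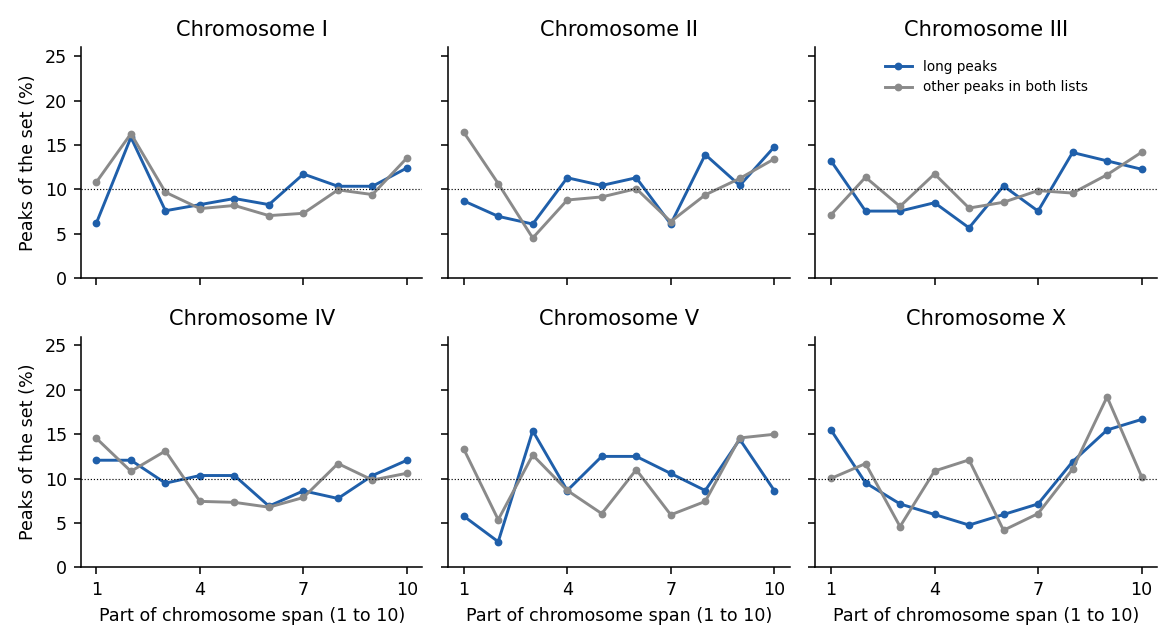
Share of peaks in % in each of 10 equal parts of the chromosome span, for the long peaks and for the other peaks in both replicate lists, with a dotted line at an even spread. On V the first 2 of the 10 parts held 6 and 3 of 104 long peaks, and 97 and 39 of 727 other peaks. On I the part after the first was the fullest for both sets, with 23 of 145 long and 185 of 1137 other peaks.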

How the data were processed

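The deposited data were 3 peak lists in WormBase WS220 coordinates, per the file headers. Reads were handled with BWA and ce10, per the submitters' processing notes. The source column names MACS in the replicate lists and MACS version 2 in the series-wide list. How the caller was set, whether inputs were used and how replicates were combined in the series-wide list is not given in the sources at hand. The score of each peak was used as deposited by the authors, and widths were end minus start plus 1. Depth is unknown, and the 95% Wilson intervals hold counting error alone, as if neighbouring peaks were independent.

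Members and measures were chosen with earlier results of these data known. Gaps are the bases between peak edges. Position and spacing were compared by exact permutation over 6 chromosomes, which share libraries and are not replicate samples, at a threshold of 0.05 with Benjamini-Hochberg adjustment over 5 tests. Named regions were the 12 widest, the widest of each chromosome, the 3 closest pairs, the 3 most isolated, the 3 on each side of the width limit and both extremes of score. The member count, outer share, nearest-peak gap and share under 1 replicate peak were checked on simulated lists with planted values. The larger flanking gap, the X comparison and the nearest-long-peak gap were not checked in this way, and no list without a planted difference was run. Python 3.11.15, numpy 2.4.6, pandas 2.3.3, scipy 1.17.1 and matplotlib 3.10.9 were used.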

Additional observations from a re-analysis of the deposited data

Results flagged for a closer look

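Of the series-wide peaks of at least 3000 bp, 10 overlapped no peak in either replicate list, and they entered no comparison. They were 3053 to 7500 bp wide with scores of 11.5 to 42.1 and a median of 29.0, against a median of 45.0 for the members. They lay on I, II, III and IV, and some lay next to each other, as II:6835077-6841962 and II:6842034-6849533. The nearest replicate 2 peak was 1638 to 20514 bp away and the nearest replicate 1 peak 2952 to 49506 bp.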

How the results depend on the processing

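The number of long peaks was 1079 with a limit of 2000 bp and 337 with 5000 bp, and within 1.5 times of 670 under the other 5 alternatives (697 to 710 with only 1 replicate list required, 905 with peaks closer than 200 bp joined). The share under 1 peak in each required replicate list was 95.3% with 5000 bp and 90.6% with joined peaks, and 96.6 to 100% with 1 list. Cover by bases was 95.2% with joined peaks and 98.1 to 99.9% with 1 list. Broad replicate 1 peaks held a member in 56.9% with 2000 bp, 20.7% with 5000 bp and 56.2% with joined peaks, and broad replicate 2 peaks in 63.9, 24.1 and 63.1%. The nearest-peak difference turned from 0.0591 to -0.00260 and -0.0138 with 1 list. The nearest-long-peak difference of -0.0525 turned to 0.0731 with 2000 bp and 0.209 with joined peaks. The larger flanking gap, chosen after seeing the data, stayed higher for members in 9 of 9 alternatives. It lost p = 0.0312 in 5 of them, with 0.384 at 5000 bp, 0.456 for the better-scoring 50% of peaks, 0.213 for the widest peak of each replicate 1 peak, and 0.274 to 0.336 with 1 list (exact permutation p of 0.0625 to 0.188). The causes were not tested. Outer shares and X kept their direction. No paired analysis was possible because the inputs, which alone share replicate numbers with the ChIP libraries, enter no comparison of peak lists. With unknown depth, absence from a list does not show absence of polymerase.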

Other observations

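Long series-wide peaks found in 1 replicate list were of similar score in both cases. The 27 in replicate 1 only had a median width of 6629 bp and a median score of 27.9, and the 40 in replicate 2 only had 3917 bp and 29.9. Some were very wide, up to 15780 bp in replicate 1 only and 15410 bp in replicate 2 only.

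Among the members, 20 lay under replicate 2 peaks with a score under 200, a limit chosen after the scores were seen. Their median score was 98.0 in replicate 2 and 636.9 in replicate 1, and their median series-wide score was 24.2, against 45.9 for the other 650 members. Counted once per member, the replicate peaks over them had a median width of 15355 bp in replicate 1 and 8401 bp in replicate 2. Some of these members shared a wide replicate 2 peak, which was then counted more than once. Several replicate 2 peaks were narrower than 3000 bp, down to 1357 bp. In replicate 1 a score under 200 was found at 17 members.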
